A study of Mus musculus with 12 samples.

Results

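The 6 early head fold (EHF) cells of this series were set against its 6 early allantoic bud (EB) cells, so that all 12 of the 12 sequenced cells entered the comparison and the cells were chosen by their stage label alone. Each cell was a single cardiac precursor cell (CP), isolated from dissociated CD1 strain mouse embryos whose yolk sac and posterior part had been cut away. There were 4 groups of 3 cells, of which EB Nkx2-5+ and EB Tbx5+ made up the earlier stage and EHF Nkx2-5+ with EHF Nkx2-5+/Tbx5+ the later. The signs give the result of PCR on the amplified cDNA of the same cell, and only cells in which it found Cfc1, but neither Sox17 nor Sox2, had been kept as candidates. The stages are therefore not matched in markers, since both EHF groups were positive for Nkx2-5 and only 1 of the EB groups was. Of 14063 gene symbols, the 5031 whose 12-cell mean reached 10 RPM were compared, where RPM counts the reads of a gene after each cell was scaled to the same total of aligned reads. A difference was described as one of stage only where both EHF groups lay on the same side of both EB groups.

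In the mouse, cardiac mesoderm leaves the primitive streak under the control of T-box and basic helix-loop-helix factors, among which MESP1 marks the earliest cells fated for the heart. These cells spread to the front of the lateral plate mesoderm and form the cardiac crescent, where NKX2-5, TBX5, GATA factors and HAND factors begin the cardiac programme and the first contractile proteins follow. The allantoic bud stage comes shortly before the head fold stage, at which the crescent takes shape beneath the folding head. BMP, FGF and WNT signals from the neighbouring endoderm and ectoderm, and the matrix between these layers, are known to act on the cells during this interval.

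Which embryo a cell came from is not labelled. Each group therefore counts as 1 sample, no test was made, and the spread between cells is given by printing the cells. For each of the 4 pairs of an EHF group and an EB group, the difference was taken as log2 of the ratio of the 2 group means after adding 10 RPM to each, a scale that understates the change of low genes. A gene was called higher or lower at EHF where all 4 differences reached 2-fold in that direction, and the smallest of the 4 is the value that ranked it. Values in the 3 cells of a group are listed in the order of replicates 1, 2 and 3, which only names them.

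The cells had between 12475588 and 37905007 aligned reads, and 1 read was worth 0.0264 to 0.0802 RPM, and a value of 0 allows up to 3 reads, or 0.0791 to 0.240 RPM, for counting error only. The listed RPM summed to 479700 to 564886 in the EB cells and to 417129 to 576187 in the EHF cells. The symbols thus do not hold all aligned reads, and the part of this in the stage differences was not tested. The number of genes at 1 RPM or more was 3249, 5075 and 5479 in the EB cells (lowest, median and highest) and 2682, 4555 and 5650 in the EHF cells. The cells with the fewest genes of the 12 were both EHF cells: EHF Nkx2-5+/Tbx5+ replicate 3 with 2682 genes and EHF Nkx2-5+ replicate 2 with 3073. In these 2 cells the 100 most abundant genes took 44.2% and 49.0% of the listed RPM, against 27.4% to 36.9% in the other 10. Without them the lowest, median and highest number of genes at EHF became 4386, 4804.5 and 5650. EB Tbx5+ replicate 2, with 3249 genes, came close to them in gene number and had 36.9% in the 100 most abundant genes, and it was kept. Counts over all genes and over the larger lists are given below with and without the 2 cells, which leaves out cells of EHF alone. The part of the 2 cells in the results with all 12 cells was not tested.

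**Figure D1:**
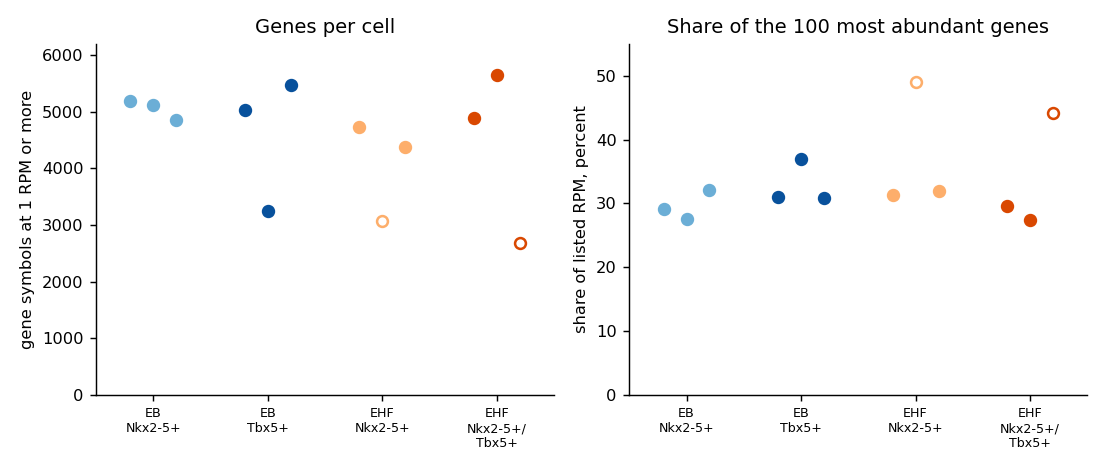
Number of gene symbols at 1 RPM or more (left) and share of the listed RPM taken by the 100 most abundant genes, in percent (right), with 1 dot per cell in the 4 groups. Open dots are the 2 EHF cells with the fewest genes, 3073 and 2682, which also have the highest shares, 49.0% and 44.2%.

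Of the PCR markers, Nkx2-5, the homeobox gene of early cardiac cells, measured 33.6, 41.9 and 1.48 RPM in the EB Nkx2-5+ cells and was listed at 0 in the 3 EB Tbx5+ cells. In the EHF Nkx2-5+ and EHF Nkx2-5+/Tbx5+ cells it measured 201, 242 and 34.7 and 262, 65.1 and 12.2 RPM. Its call of higher at EHF, with a smallest pair difference of 1.79, thus follows in part from the choice of cells by PCR and is given as a description. Tbx5, the T-box gene of the first heart field, was low even where PCR had found it: 0.218, 0.0276 and 0.335 RPM in the EB Tbx5+ cells and 60.3, 3.69 and 8.69 RPM in the EHF Nkx2-5+/Tbx5+ cells, with 0 in the 6 cells of the other groups. Cfc1, which encodes a NODAL co-receptor, was found at 0.0720, 0.0882 and 45.3, 0.0272, 60.5 and 108, 189, 5.13 and 22.8 and 94.8, 52.5 and 75.6 RPM in the 4 groups taken in the order above. Sox17 was at 0 in 11 cells and at 0.0895 RPM in EHF Nkx2-5+ replicate 1. Gapdh, a glycolytic enzyme used as a reference, ranged from 172 to 306 RPM at EB and from 14.3 to 311 RPM at EHF, where the lowest value was that of EHF Nkx2-5+/Tbx5+ replicate 3.

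Over the 5031 genes, 166 were called higher at EHF (3.3%) and 337 were called lower (6.7%). Without the 2 cells, 171 were higher (3.4%) and 255 lower (5.07%), and 110 of the 166 and 218 of the 337 were called in both. The same rule applied to the other labelled factor, the 2 groups with Tbx5 against the 2 groups without, called 205 genes higher (4.07%) and 156 lower (3.1%). The 337 genes lower at EHF exceed both of these counts, and the 166 higher at EHF lie between them. Without the 2 cells the marker rule gave 206 (4.09%) and 144 (2.86%). With no demand for 2-fold, all 4 differences were above 0 for 618 genes (12.3%) and below 0 for 1155 (23.0%), the called genes included. Without the 2 cells these counts were 762 (15.1%) and 954 (19%). These shares of 12.3% above and 23.0% below, and of 15.1% and 19% without the 2 cells, are the ones to hold beside the counts of each list. Counts of list members called higher or lower are to be held beside the 3.3% and 6.7% called over all genes, or 3.4% and 5.07% without the 2 cells. The median difference over all genes was -0.19 on the log2 scale with all cells and -0.01 without the 2 cells.

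A call did not mean that the cells of a group were alike. In 63 of the 166 higher genes, at least 2 of 3 cells in both EHF groups reached 10 RPM, and in 170 of the 337 lower genes at least 2 of 3 cells in both EB groups did so. In 50 of the higher and 82 of the lower genes, on the other hand, a single cell held at least 9 in 10 of the RPM of its group in both groups of the stage that was higher. The 2 cells with the fewest genes were both above all the other 10 cells in 58 of the 5031 genes, and 35 of these were among the 166 called higher. No overlap at all between the 6 EHF and the 6 EB cells was seen for 5 genes higher at EHF (0.0994%) and 18 lower (0.358%), and without the 2 cells for 30 (0.596%) and 23 (0.457%). Leaving out cells can only keep or add such genes, so a rise in these counts was fixed by the rule. For 1 of the 5, Tcerg1l, and for 2 of the 18, Mesp1 and Gas8 (the last named after its values were seen), the lowest cell of the higher stage was under 0.240 RPM, the largest value that 3 reads give in these cells, so that these separations do not hold at that depth. Leaving out 1 cell gave 5 to 13 and 19 to 44, the most without EHF Nkx2-5+/Tbx5+ replicate 3 and without EB Tbx5+ replicate 2. Between the groups with and without Tbx5 there were 2 such genes higher (0.0398%) and 3 lower (0.0596%). The mean Spearman correlation between cells across the 5031 genes, which share their cells and are not independent, was 0.424 over the 15 pairs of EB cells, 0.364 over the 15 pairs of EHF cells and 0.375 over the 36 pairs between stages. Leaving out the 2 cells gave 0.432 within EHF and 0.417 between stages. With all 12 cells, pairs of EHF cells were thus less alike on average than pairs between stages, and without the 2 cells a little more alike.

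**Figure D2:**
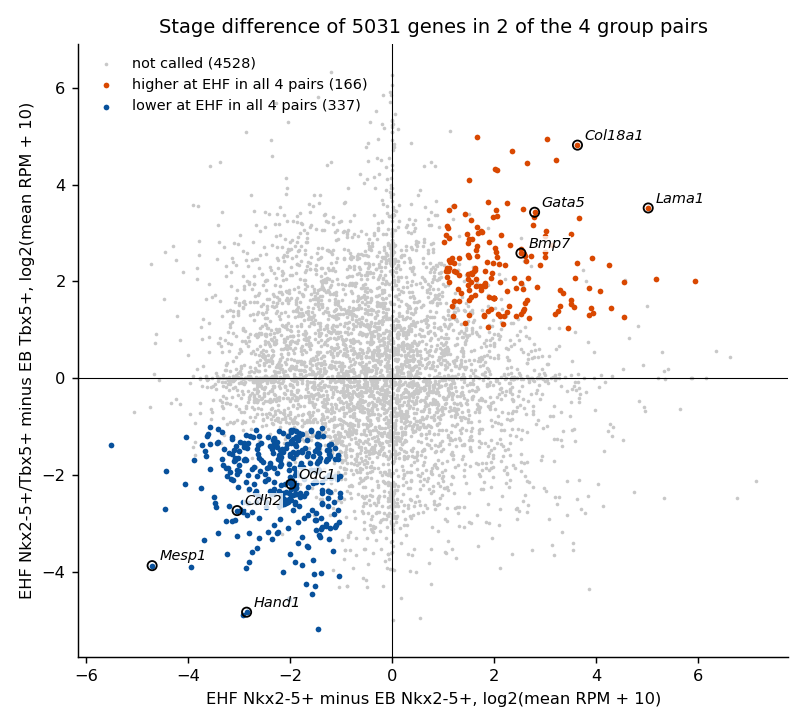
Stage difference of each of the 5031 genes on the log2(mean RPM + 10) scale, between the groups without Tbx5 (horizontal) and between the groups with Tbx5 (vertical), 1 dot per gene. Orange dots are the 166 genes called higher and blue dots the 337 called lower in all 4 group pairs. Labelled genes are circled, and Lama1 and Col18a1 lie far out at the upper right and Mesp1 and Hand1 at the lower left.

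Of 7 compared genes of the primitive streak and nascent mesoderm, 3 lay below and 2 above in all 4 pairs. These are 42.9% and 28.6%, against 23.0% and 12.3% of all genes, and the 3 below were called lower at EHF. Mesp1, the basic helix-loop-helix gene switched on in mesoderm as it leaves the streak, had the largest smallest pair difference of the 5031 genes in the lower direction, -3.86. It measured 225, 0.176 and 532 RPM in the EB Nkx2-5+ cells and 0.218, 317 and 90.2 RPM in the EB Tbx5+ cells, so that it was abundant in 2 of 3 cells of each group. In the 6 EHF cells its highest value was 0.113 RPM and 5 cells were listed at 0. T, the Brachyury gene of the streak, was found in 1 EB cell of each group, with 0, 47.8 and 0 and 124, 0 and 0 RPM, and was listed at 0 in the 6 EHF cells. Evx1, a homeobox gene of the posterior streak, reached 0, 239 and 113 and 54.5, 0.0276 and 0 RPM at EB against at most 0.0564 RPM at EHF. Their smallest pair differences were -1.38 for T and -1.49 for Evx1. The 3 genes were called lower with and without the 2 cells. The 2 above did not reach 2-fold in each pair: Cfc1, whose stage difference was 0.87, and Frzb, a secreted WNT antagonist. As a whole the list had a median of -1.10 with all cells and -0.64 without the 2 cells, and -0.30 without EB Nkx2-5+ replicate 3.

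The promoter windows of a gene that was lower and of a pair that were higher at EHF are printed here to show which short motifs they hold. Each is the 250 bases before a start given for the gene in the RefSeq promoter table (GRCm38.p6), read on the strand of the gene, and capitals mark matches on either strand. The motifs searched were the T-box core AGGTGT, the TCF/LEF motif CTTTGAT, the GATA motif AGATAA, the NKX2-5 motif TCAAGTG, the GC box GGGCGG, the TATA box TATAAA and CCAAT. The Mesp1 window (chr7:79793591-79793840, minus strand) held the T-box core and the TCF/LEF motif.
Mesp1: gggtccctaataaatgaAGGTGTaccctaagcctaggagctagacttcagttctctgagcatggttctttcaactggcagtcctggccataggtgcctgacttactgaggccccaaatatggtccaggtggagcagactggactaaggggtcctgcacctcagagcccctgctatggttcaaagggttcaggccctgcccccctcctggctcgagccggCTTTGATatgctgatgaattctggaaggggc
Gata5: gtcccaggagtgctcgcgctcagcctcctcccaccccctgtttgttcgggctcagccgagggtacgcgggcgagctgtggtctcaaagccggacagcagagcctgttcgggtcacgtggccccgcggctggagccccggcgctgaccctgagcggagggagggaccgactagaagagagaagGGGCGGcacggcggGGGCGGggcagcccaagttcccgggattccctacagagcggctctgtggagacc
Col18a1: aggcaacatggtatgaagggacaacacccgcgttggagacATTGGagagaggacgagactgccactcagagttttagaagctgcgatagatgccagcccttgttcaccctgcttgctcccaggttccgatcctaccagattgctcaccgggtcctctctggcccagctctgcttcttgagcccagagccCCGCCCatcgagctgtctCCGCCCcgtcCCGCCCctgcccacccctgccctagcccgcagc
The window of Gata5 (chr2:180334680-180334929, minus strand), which lies inside the full extent of the gene since its outermost start is further upstream, held 2 GC boxes and that of Col18a1 (chr10:77166531-77166780, minus strand) 3 GC boxes and 1 CCAAT. A window was given for 131 of the 166 genes called higher, for 259 of the 337 called lower and for 3855 of all 5031. The T-box core was found in 3.82% of the higher, 10.0% of the lower and 8.92% of all windows, and the TCF/LEF motif in 0.763%, 2.7% and 2.13%. The GC box was in 56.5%, 67.6% and 62.7%, CCAAT in 36.6%, 37.8% and 37.7%, TATAAA in 5.34%, 6.18% and 5.37%, AGATAA in 4.58%, 4.25% and 4.51%, and TCAAGTG in 0.0%, 0.772% and 1.5%. Motif matches are given as a description of the letters alone.

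Among 12 compared cardiac transcription factors, 4 lay above in all 4 pairs and 1 below (33.3% and 8.33%, against 12.3% and 23.0% of all genes), and 5 and 2 did so without the 2 cells. The 4 include Nkx2-5, whose direction follows in part from the choice of cells by PCR. Gata5, a zinc finger factor of cardiac and endodermal precursors that lies on chromosome 2 (180325088 to 180335503), was at or below 0.468 RPM in the 6 EB cells. At EHF it measured 181, 0.0282 and 0.160 RPM in the Nkx2-5+ cells and 172, 119.7 and 4.96 RPM in the Nkx2-5+/Tbx5+ cells, so that 3 of 6 cells were above 100 RPM and the other 3 were low. Its smallest pair difference was 2.79, and it stayed called without the 2 cells. Isl1, the LIM homeobox gene that marks second heart field cells, was above in all 4 pairs by at least 0.86, short of a call. It reached 1 RPM in 5 of the 6 EHF cells, with 2.09, 10.9 and 14.0 and 0.0528, 89.5 and 31.8 RPM, and in 1 of the 6 EB cells, at 1.37 RPM. Smarcd3, the cardiac subunit of BAF chromatin remodelling complexes, lay above in all pairs by at least 0.04. Gata4 and Gata6 had stage differences of 1.19 and 1.35, but not in all pairs.

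Hand1, a basic helix-loop-helix gene of lateral and extraembryonic mesoderm and of the early heart, was the exception in the list. It measured 1158, 44.8 and 0.111 RPM in the EB Nkx2-5+ cells and 1643, 1102 and 1684 RPM in the EB Tbx5+ cells. At EHF it was found at 139, 0.649 and 0 and 0, 0 and 127 RPM, which overlapped with 2 of the EB Nkx2-5+ cells. Its smallest pair difference was -2.86, and the stage difference was -4.12 with all cells and -4.40 without the 2 cells. Hand1 is also a member of the list of allantois and extraembryonic mesoderm genes, whose summed level was 81.1 to 4468 RPM at EB and 764 to 2572 RPM at EHF. In that list Hand1 was the only one of 6 compared members called, Postn and Cdx4 were at 0 in all 12 cells, and Spin2c and Bmp4 were spread over the cells, Spin2c at 903, 0 and 0.974 RPM and Bmp4 at 1105, 22.5 and 587 RPM in the EB Tbx5+ cells. The part of such cells in the Hand1 result was not tested.

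**Figure D3:**
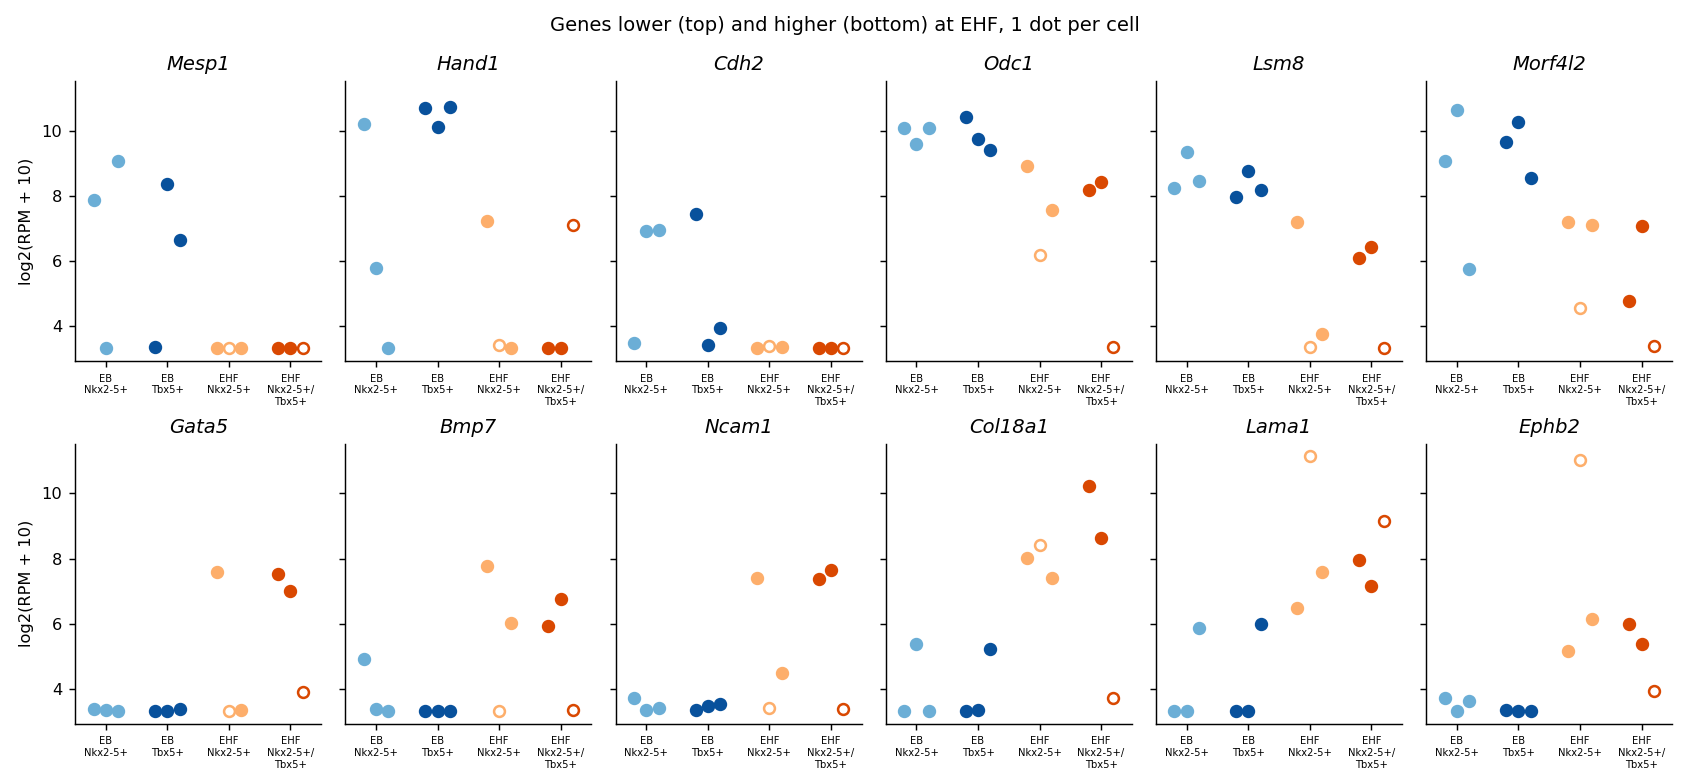
log2(RPM + 10) of 6 genes lower at EHF (top) and 6 higher at EHF (bottom), with 1 dot per cell in the 4 groups and open dots for the 2 EHF cells with the fewest genes. Odc1 and Lsm8 separate the 6 EB from the 6 EHF cells, as do Lama1 and Ephb2 in the other direction, whereas Mesp1, Hand1 and Gata5 are absent from some cells of the stage at which they are higher.

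Of the 7 compared second heart field genes, 2 lay above and 3 below in all pairs (28.6% and 42.9%, against 12.3% and 23.0% of all genes). Aldh1a2, the enzyme that makes retinoic acid in posterior lateral mesoderm, was found at 0.180, 49.2 and 0 RPM in the EB Nkx2-5+ cells and 0, 400.3 and 64.2 RPM in the EB Tbx5+ cells, and at no more than 0.519 RPM at EHF. Hoxb1, a homeobox gene that responds to retinoic acid in the mouse, measured 273, 0.309 and 0.0279 and 0.191, 89.2 and 68.7 RPM at EB. At EHF, Hoxb1 was above 1 RPM in 1 cell, EHF Nkx2-5+/Tbx5+ replicate 2, at 57.1 RPM, and it was not called without the 2 cells. Foxc2, a forkhead gene of head and paraxial mesoderm, was called higher, but rested on 1 cell in each EHF group, with 106, 1.81 and 0 and 0.0528, 116 and 0.0287 RPM. Of 12 compared retinoic acid and Hox genes, only Aldh1a2 and Hoxb1 lay below in all pairs (16.7%, against 23.0%). The paraxial mesoderm list had 3 compared members, of which Foxc2 lay above and Dll3 below in all pairs.

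Sarcomere genes were higher on average and not in all pairs. Of the 11 compared, all 11 had a higher mean at EHF, but just 2, Myl4 and Tpm1, lay above in all 4 pairs and none reached 2-fold in each. Myl4, an atrial and embryonic myosin light chain, measured 80.6, 0 and 0 RPM in the EHF Nkx2-5+ and 180.2, 24.0 and 435 RPM in the EHF Nkx2-5+/Tbx5+ cells, against a single EB cell above 1 RPM, at 47.3 RPM. Tnnt2, cardiac troponin T, measured 11.1, 0.191 and 2269.6 RPM in the EHF Nkx2-5+/Tbx5+ cells and was at no more than 0.0272 RPM elsewhere, so its mean rested on replicate 3 of that group, 1 of the 2 cells with the fewest genes. The same cell held 11122 RPM of Tpm1, a tropomyosin gene, against 376 to 1241 RPM at EB. The median of the sarcomere list was 1.93 with all cells and 0.69 without the 2 cells, and 0.64 without EHF Nkx2-5+/Tbx5+ replicate 3 alone. Myl7, the atrial myosin light chain, was present at EB already, at 12.6, 138 and 536 RPM (lowest, median and highest), and at 17.6, 235 and 1219 RPM at EHF, and the groups overlapped. Myl2, the ventricular light chain, was at 0 in all cells but EB Nkx2-5+ replicate 3, at 0.223 RPM.

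The 7 compared pluripotency-linked genes held 1 gene called, Sall4, a zinc finger gene of pluripotent cells and early mesoderm. It measured 26.5, 203 and 505 RPM at EB and 2.93, 11.6 and 150.3 RPM at EHF (lowest, median and highest), and it was not called without the 2 cells, where its difference was -1.61. Dnmt3b, the de novo DNA methyltransferase, lay above in all pairs by at least 0.34 and reached 1054 RPM in EHF Nkx2-5+/Tbx5+ replicate 2. Zfp42, known as Rex1, was found in 2 EB Tbx5+ cells, at 419 and 13.0 RPM, and at no more than 0.0264 RPM at EHF.

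Canonical WNT genes lay below in all pairs in 7 of 20 and above in 2 (35% and 10%, against 23.0% and 12.3%), and in 5 and 1 without the 2 cells. Their median of -0.88 became -0.47. Lef1, the transcription factor at the end of the pathway, measured 332, 0.265 and 204 RPM in the EB Nkx2-5+ and 6.59, 85.7 and 86.4 RPM in the EB Tbx5+ cells, and 4.42, 1.18 and 17.1 and 1.61, 52.0 and 0.0574 RPM in the EHF groups. Ctnnb1, which encodes beta-catenin, ranged from 118 to 2888 RPM with a median of 874 at EB and from 16.5 to 605 RPM with a median of 209 at EHF. Both were called lower and neither was called without the 2 cells, where their differences were -2.17 and -1.61. Dvl1, a scaffold protein of the receptor complex, was below in all pairs by -0.89 at least. Tcf7, which encodes the factor TCF1, was at 1 RPM or more in at least 5 EB cells and at most 1 EHF cell. Among 10 compared non-canonical genes and WNT antagonists, Frzb alone lay above in all pairs and Kremen1, a DKK receptor, alone below. Sfrp5, a secreted antagonist of the cardiac crescent and foregut, was listed at 0 in the 6 EB and 3 EHF Nkx2-5+ cells and measured 702, 20.9 and 158 RPM in the EHF Nkx2-5+/Tbx5+ cells, so it does not meet the rule for a difference of stage.

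Of 17 compared BMP, NODAL and SMAD genes, 6 lay above in all pairs and none below (35.3%, against 12.3%). Bmp7, a BMP ligand of the early heart region, measured 20.6, 0.397 and 0.111 RPM in the EB Nkx2-5+ cells and was listed at 0 in the 3 EB Tbx5+ cells. At EHF it measured 207, 0.0282 and 55.5 RPM in the Nkx2-5+ and 50.9, 98.9 and 0.172 RPM in the Nkx2-5+/Tbx5+ cells, so that the 4 EHF cells with more genes were high and the 2 with the fewest were low. Id1, a target of BMP signalling that inhibits helix-loop-helix factors, measured 0.223, 98.7 and 462 RPM at EB and 61.4, 507 and 4300.1 RPM at EHF (lowest, median and highest). The highest value was that of EHF Nkx2-5+ replicate 2, and Id1 was not called without the 2 cells. Gdf1, a ligand of the NODAL branch, Smurf1, a ubiquitin ligase for receptors and SMADs, and Cfc1 lay above in all pairs short of 2-fold. For the whole list the median was 0.62 and became -0.13 without the 2 cells, where 6 members lay above and 1 below in all pairs.

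FGF and ERK pathway genes had 7 of 12 members below in all pairs and 4 above (58.3% and 33.3%, against 23.0% and 12.3%), and 5 and 4 without the 2 cells. Their median was -0.81 and then -0.47. Etv5, an ETS factor induced by FGF signals, was at 0, 173 and 169 and 16.9, 225 and 0.244 RPM at EB and at 0, 22.5 and 44.3 and 11.1, 0 and 0 RPM at EHF, and was called lower with and without the 2 cells. Fgfrl1, a receptor-like protein without a kinase domain, was called higher, at 0.649, 96.7 and 436 RPM at EHF against 0, 0.0152 and 79.8 RPM at EB (lowest, median and highest), a call that was lost by a small margin without the 2 cells (smallest pair difference 0.99). Of 10 compared NOTCH pathway genes, Rbpj, the DNA-binding partner of the NOTCH intracellular domain, was the one called. It ranged from 44.0 to 457 RPM at EB and from 0.258 to 85.2 RPM at EHF, where 1 cell, EHF Nkx2-5+/Tbx5+ replicate 2, lay within the EB range. Notch3 had a mean difference of 3.01 that rested on EHF Nkx2-5+ replicate 2, at 534 RPM.

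Extracellular matrix genes were the list with the most genes called higher. Of 19 compared members, 8 lay above in all pairs and 2 below (42.1% and 10.5%, against 12.3% and 23.0%), 9 and 3 did so without the 2 cells, 5 were called higher and none lower. The median was 1.37 with all cells and 0.83 without the 2 cells. Col18a1, the basement membrane collagen that is the source of endostatin, measured 0.0360, 31.9 and 0 RPM in the EB Nkx2-5+ and 0.0272, 0.276 and 27.1 RPM in the EB Tbx5+ cells. At EHF it measured 249.9, 328 and 158 RPM in the Nkx2-5+ and 1194, 389 and 3.21 RPM in the Nkx2-5+/Tbx5+ cells, so that 5 of 6 EHF cells lay above every EB cell. Its smallest pair difference, 3.63, was the largest of the 5031 genes in the higher direction, and 4.67 was its stage difference without the 2 cells.

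Lama1, the laminin chain of the first embryonic basement membranes (chromosome 17, 67697127 to 67822645), was at 0, 0.0882 and 48.0 and 0, 0 and 53.3 RPM at EB. Its EHF values were 78.7, 2232 and 183 and 238, 134 and 553 RPM, each of them above the highest EB cell. The cell with 2232 RPM was EHF Nkx2-5+ replicate 2, and without the 2 cells the stage difference of 4.43 became 2.65. Col4a2, the partner chain of Col4a1 in the collagen network of basement membranes, was called higher, with 0, 0 and 208 and 168, 85.7 and 0.0287 RPM at EHF against 0, 2.44 and 28.9 RPM at EB (lowest, median and highest). Col4a1 did not follow it, with a stage difference of -1.04 and no common sign over the pairs. Nid2, a nidogen that links laminin and collagen, and Hapln1, which links hyaluronan to proteoglycans, were the other 2 called; they are named for completeness after their values were seen, with smallest differences of 1.34 and 1.54. Of the 5, Nid2 alone was not called without the 2 cells.

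Among adhesion genes, Cdh2 and Epcam were called lower. Cdh2, which encodes N-cadherin, measured 1.22, 112 and 113 RPM in the EB Nkx2-5+ cells and 163, 0.857 and 5.33 RPM in the EB Tbx5+ cells. Its highest EHF value was 0.451 RPM, below the lowest EB value of 0.857 RPM, and the smallest pair difference was -2.68. Epcam, an adhesion molecule of epithelia, was at 0, 164 and 0.0836 and 123, 0.0276 and 1.10 RPM at EB and was listed at 0 in the 6 EHF cells. Of the 10 compared genes of mesenchymal transition and adhesion, 4 lay below and 2 above in all pairs (40% and 20%, against 23.0% and 12.3%). Ctnna1, which encodes alpha-catenin, lay below by -0.69 at least. Ncam1, the neural cell adhesion molecule, named by rank and not by list, was called higher: it was at or below 3.17 RPM in the 6 EB cells, and at 158, 0.677 and 12.3 and 154, 189 and 0.344 RPM in the EHF groups. Ephb2, a receptor tyrosine kinase for ephrin-B ligands, did not overlap between stages. Its EB cells reached 3.17 RPM and its EHF cells started at 5.28 RPM, with 25.6, 2054 and 60.8 and 54.2, 31.5 and 5.28 RPM.

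In the actin cytoskeleton list, 13 of 40 lay below in all pairs and 8 above, and 7 were called lower and none higher (32.5% below and 20% above, against 23.0% and 12.3%). Leaving out the 2 cells gave 14 below and 9 above, of which 3 were called lower: Ezr, Tpm4 and Wasf1. Ezr, which encodes ezrin, a linker of actin to the membrane, did not overlap between stages: the EB cells held 0.995, 21.1 and 136 RPM (lowest, median and highest) and the EHF cells at most 0.301 RPM. Tpm4, a non-muscle tropomyosin, measured 96.9, 83.6 and 127 and 364, 21.5 and 16.9 RPM at EB and 5.58, 0.339 and 8.42 and 7.20, 18.7 and 7.97 RPM at EHF, where 1 cell reached the lowest EB values. Wasf1, a subunit of the WAVE complex that starts branched actin, was at 154, 229 and 0.223 and 0.272, 4.78 and 93.6 RPM at EB and above 1 RPM in 1 EHF cell. The median over the list was near 0, at -0.05, and became 0.12 without the 2 cells.

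Genes of DNA replication lay below in all pairs in 17 of 40 and above in 3 (42.5% and 7.5%, against 23.0% and 12.3%), with 6 called lower and 1 higher. Leaving out the 2 cells, 11 lay below and 3 above. Of these, 2 were called lower, Orc6 and Gins3, and 2 were called higher. Orc6, a subunit of the origin recognition complex, was at 197, 341 and 40.1 and 88.2, 686 and 165 RPM at EB and at 0.925, 0.367 and 161 and 54.3, 53.3 and 0 RPM at EHF. Gins3, a subunit of the GINS complex of the replicative helicase, was found at 112 and 191 RPM in 1 EB cell of each group, at 2.68 RPM in EB Tbx5+ replicate 3 and at 0.358 RPM or less at EHF. Gins4, of the same complex, went the other way and was called higher, with 156, 0 and 217 and 15.4, 103 and 0.201 RPM at EHF against 0, 2.22 and 23.0 RPM at EB (lowest, median and highest). Pcna, the sliding clamp of replication, was called lower with all cells and had a difference of -0.90 without the 2 cells; it was named after its values were seen. The list median was -0.79 and -0.57 without the 2 cells.

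Of 30 genes of mitosis, 6 lay below and 3 above in all pairs (20% and 10%, against 23.0% and 12.3%). Without the 2 cells the counts were 4 and 4. Ncaph, a condensin subunit, was called lower with all cells and not without the 2 cells (smallest pair difference -0.73), and Cdca3, a regulator of mitotic entry, was called higher. The Cdca3 call rested on 1 cell in each EHF group, with 0.119, 0.169 and 89.4 and 0.106, 166 and 0.0860 RPM, and its sign turned when the median over cells was used in place of the mean. In the list of cell cycle inhibitors and G1 genes, 3 of 13 lay above and 1 below (23.1% and 7.69%, against 12.3% and 23.0%). Ccnd3, which encodes cyclin D3, was called higher, at 45.6, 25.7 and 15.3 and 48.0, 7.66 and 35.7 RPM at EB and 121, 0 and 204 and 315, 188 and 30.4 RPM at EHF. Cdk4, the kinase that cyclin D3 binds, lay above in all pairs by at least 0.56, within overlapping ranges of 325 to 1218 RPM at EB and 625 to 1805 RPM at EHF.

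**Figure D4:**
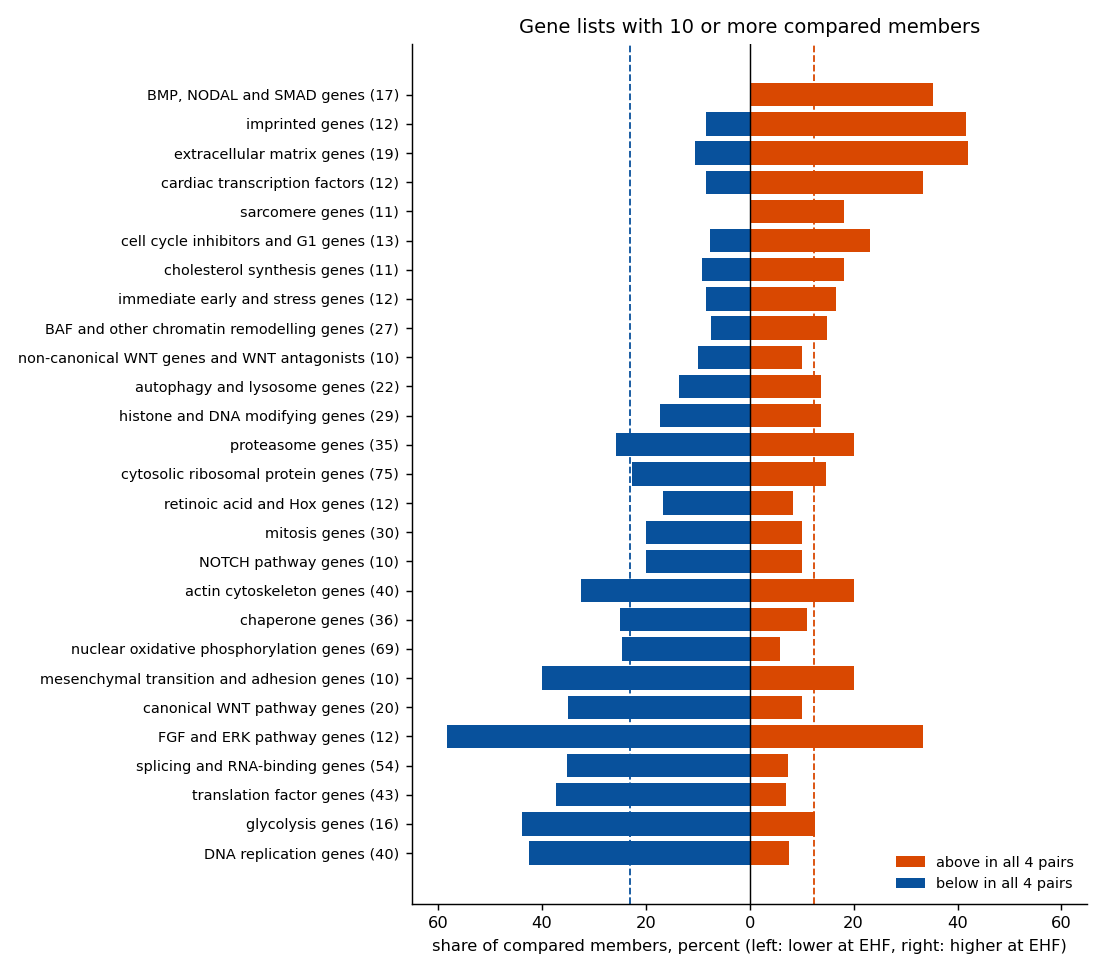
Share of the compared members of each gene list that lay above (orange, right) or below (blue, left) at EHF in all 4 group pairs, in percent, for the lists with 10 or more compared members (number in brackets). Dashed lines are the shares over all 5031 genes, 12.3% and 23.0%. DNA replication and glycolysis genes are at the bottom with 42.5% and 43.8% below, and extracellular matrix genes have 42.1% above.

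Next come the 10 genes with the widest gap between all EB and all EHF cells in the lower direction. Odc1, ornithine decarboxylase, the first enzyme of polyamine synthesis, measured 1082, 764 and 1063 RPM in the EB Nkx2-5+ and 1365, 856 and 668 RPM in the EB Tbx5+ cells, and was at 469, 62.7 and 179.6 and 282, 330.2 and 0.344 RPM in the EHF groups. The lowest EB cell thus lay above the highest EHF cell, at 668 against 469 RPM. Lsm8, a subunit of the LSM ring on U6 small nuclear RNA, was at 293, 635 and 340.0 and 241, 423 and 281 RPM at EB and at 137, 0.367 and 3.61 and 58.7, 77.0 and 0.172 RPM at EHF. Syncrip, an RNA-binding protein also named hnRNP Q, ranged from 329 to 1174 RPM at EB and from 0.918 to 237 RPM at EHF. Tnrc6b, a partner of Argonaute proteins in silencing by miRNA, was at 6.70, 53.3 and 235 RPM at EB (lowest, median and highest) and at no more than 3.04 RPM at EHF. These 4 genes were lower by at least -1.98, -2.51, -1.52 and -2.65 in the order given. Of the 4, Syncrip fell just short of a call without the 2 cells, with -0.97. Also without overlap were Znhit3, a factor of small nucleolar ribonucleoprotein assembly, with EB cells from 5.20 RPM and EHF cells up to 1.19 RPM, Lmnb2, the lamin B2 gene, from 54.5 and up to 52.0 RPM, and Marcksl1, an actin-binding substrate of protein kinase C, from 450.2 and up to 432 RPM. For Lmnb2, Marcksl1 and Gm15645, a pseudogene from 35.1 RPM at EB and up to 33.3 RPM at EHF, the highest EHF cell came close to the lowest EB cell.

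Splicing and RNA-binding genes lay below in all pairs in 19 of 54 and above in 4 (35.2% and 7.41%, against 23.0% and 12.3%), and in 18 and 9 without the 2 cells, and 5 were called lower. The list median was -0.39, and -0.35 without the 2 cells. Hnrnpr, a heterogeneous nuclear ribonucleoprotein close to Syncrip, was at 49.6, 501 and 207 and 504, 0.221 and 271 RPM at EB and at 90.4, 0.0564 and 4.89 and 24.4, 140.0 and 4.62 RPM at EHF, and it was the one of the 5 also called without the 2 cells. Pcbp1, a poly(C)-binding protein among the most abundant of these genes, ranged from 1509 to 4170.2 RPM at EB and from 1.92 to 1867 RPM at EHF, so that 2 EHF cells lay within the EB range. Without the 2 cells that had the fewest genes, Pcbp1 was lower by -1.09, with a smallest pair difference short of 2-fold.

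Translation factors lay below in 16 of 43 and above in 3 (37.2% and 6.98%, against 23.0% and 12.3%). Leaving out the 2 cells, 10 lay below and 5 above, closer to the 19% and 15.1% of all genes, and the median went from -0.40 to -0.21. Eif2s3x, the gamma subunit of initiation factor 2, was at 0.691, 44.8 and 139 RPM at EB and 0.860, 6.29 and 26.6 RPM at EHF (lowest, median and highest), and Eif5, its GTPase-activating partner, at 9.54, 57.1 and 167 and 2.87, 6.69 and 32.8 RPM. Both were called lower with and without the 2 cells. Eif2b5, a subunit of the exchange factor for initiation factor 2, was called higher and was found above 10 RPM in 3 EHF cells, at 74.3, 0.141 and 0.481 and 42.0, 58.9 and 0.0574 RPM. Cytosolic ribosomal protein genes lay below in 17 and above in 11 of 75 (22.7% and 14.7%, against 23.0% and 12.3%), and none reached 2-fold in all pairs. Of these, Rpl36 lay above by 0.85 at least, and Rps7 and Rpl7 below by -0.76 and -0.65. Their median of -0.05 became 0.30 without the 2 cells, with 26 above and 5 below.

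Proteasome genes lay below in 9 and above in 7 of 35 (25.7% and 20%, against 23.0% and 12.3%). The balance turned without the 2 cells, with 4 below and 9 above, and the median went from -0.39 to -0.05. Psmd7, a subunit of the regulatory lid, did not overlap between stages, with 151, 219 and 57.0 and 152, 34.8 and 96.5 RPM at EB and 28.7, 0.0564 and 0.962 and 14.9, 1.48 and 1.12 RPM at EHF. Psmd6, of the same lid, was called lower but rested on 1 EB cell of each group, at 429.6 and 795 RPM. Chaperone genes lay below in 9 and above in 4 of 36 (25% and 11.1%, against 23.0% and 12.3%). Without the 2 cells the counts were 6 and 4, and the median turned from -0.36 to 0.09. With all cells Cct8, a subunit of the chaperonin TRiC, and Dnaja2, an HSP70 co-chaperone, were called lower, and both calls were lost without the 2 cells (smallest pair differences -0.80 and -0.79). Dnajb11, an endoplasmic reticulum co-chaperone, was called higher with and without them. Dnajb11 measured 79.2, 0.0564 and 0.802 and 30.8, 90.8 and 9.61 RPM at EHF and at most 4.51 RPM at EB. Autophagy and lysosome genes lay above in 3 and below in 3 of 22 (13.6% each, against 12.3% and 23.0%). Map1lc3b, the autophagosome protein LC3B, was called lower with all cells and not without the 2 cells, and Atg13, of the kinase complex that starts autophagy, was called higher, the latter on 1 cell in each EHF group (0, 0.0282 and 119 and 0, 97.4 and 0.0574 RPM).

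Glycolysis genes lay below in 7 of 16 and above in 2 (43.8% and 12.5%, against 23.0% and 12.3%), and in 6 and 1 without the 2 cells, and 3 were called lower. Pgam1, phosphoglycerate mutase, ranged from 634 to 2017 RPM at EB and from 1.32 to 1035 RPM at EHF. Ldhb, a lactate dehydrogenase subunit, was at 167, 323 and 206 and 0.0544, 413 and 206 RPM at EB and 145, 12.8 and 119.5 and 40.6, 177 and 1.95 RPM at EHF. Bpgm, which makes bisphosphoglycerate, was high in 1 EB cell of each group, at 90.0 and 94.5 RPM, and was the one of the 3 called without the 2 cells as well. The list median, -0.41, became -0.16 without them. Nuclear genes of oxidative phosphorylation lay below in 17 and above in 4 of 69 (24.6% and 5.8%, against 23.0% and 12.3%). None was called, and Cox7a2, Cox7a2l and Atp5a1 lay below by -0.80, -0.72 and -0.65 at least. Without the 2 cells 6 lay below and 13 above, and the median turned from -0.14 to 0.24.

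The 2 subunits of the electron transfer flavoprotein, which passes electrons from fatty acid oxidation to the respiratory chain, were called in opposite directions. Etfa was at 116, 188 and 41.4 and 92.9, 33.2 and 149 RPM at EB and at 42.9, 0.0282 and 0.721 and 0.158, 0.601 and 0.0287 RPM at EHF, where 1 cell lay within the EB range. Etfb was at 13.4, 6.75 and 15.6 and 33.4, 21.2 and 90.3 RPM at EB and at 197, 0.818 and 159.6 and 61.1, 238 and 130.4 RPM at EHF, where 5 of 6 cells were above 60 RPM and EHF Nkx2-5+ replicate 2 was below 1 RPM. Both calls held without the 2 cells. Of the 9 compared fatty acid oxidation genes, 2 lay above and 1 below in all pairs (22.2% and 11.1%, against 12.3% and 23.0%). Cholesterol synthesis genes lay above in 2 and below in 1 of 11 (18.2% and 9.09%, against 12.3% and 23.0%), with none called. Fdps and Srebf1 lay above by 0.32 and 0.11 at least and Mvk below by -0.75.

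Imprinted genes lay above in 5 of 12 and below in 1 (41.7% and 8.33%, against 12.3% and 23.0%), and in 7 and 1 without the 2 cells. With all cells 3 were called higher and 1 lower, Phlda2, a gene that restrains placental growth, whose stage difference was -1.74 and which was not called without the 2 cells. Grb10, a growth factor receptor adaptor that restrains growth, was at 118, 159.7 and 15.3 and 6.51, 32.2 and 49.5 RPM at EB and 185, 1066 and 29.7 and 212, 859 and 1259.7 RPM at EHF. Meg3, a maternally expressed long non-coding RNA on chromosome 12, was at 0.111, 23.6 and 73.3 RPM at EB and 2.64, 106 and 1196 RPM at EHF (lowest, median and highest), and the 2 highest cells, at 1196 and 487 RPM, were the 2 with the fewest genes. Ndn, which encodes necdin and is expressed from the paternal allele, was at 45.6, 14.1 and 1.67 and 24.0, 11.0 and 0.792 RPM at EB and at 109.8, 0 and 125 and 14.6, 215 and 0.430 RPM at EHF. Among the other 10 cells Ndn was the one called, with a difference of 2.27, against 2.17 for Grb10 and 0.92 for Meg3. Cdkn1c, a cell cycle inhibitor, lay above in all pairs by 0.28 at least, with EHF values of 565, 0.649 and 139 and 593, 697 and 495 RPM. Over the list the median was 1.44, and 1.16 without the 2 cells.

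Chromatin genes had few calls. Of 27 BAF and other remodelling genes, 4 lay above and 2 below in all pairs (14.8% and 7.41%, against 12.3% and 23.0%). Without the 2 cells the counts were 7 and 3. Arid2, a subunit of the PBAF complex, was called lower with all cells and not without the 2 cells (smallest pair difference -0.67), at 1.69, 147 and 1345 RPM at EB and 3.30, 27.2 and 137 RPM at EHF (lowest, median and highest), and Actl6a, an actin-related subunit, did not overlap between stages, with EB cells from 5.07 RPM and EHF cells up to 4.62 RPM. Of 29 histone and DNA modifying genes, 4 lay above and 5 below (13.8% and 17.2%, against 12.3% and 23.0%), and 2 and 4 without the 2 cells. Eed, a core subunit of Polycomb complex PRC2, was called lower with and without the 2 cells, at 193, 9.21 and 134 and 263, 11.5 and 2.68 RPM at EB and 9.97, 5.84 and 0 and 0.0791, 46.2 and 4.76 RPM at EHF. Dnmt1, the maintenance DNA methyltransferase, lay below in all pairs by -0.69 at least.

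The remaining genes at the head of the ranking belong to no list. Among those called lower, Morf4l2, a subunit of NuA4-type acetyltransferase complexes on the X chromosome, was at 531, 1572 and 43.9 and 803, 1221 and 365 RPM at EB and 138, 13.8 and 127 and 17.5, 126 and 0.459 RPM at EHF. Yaf2, a subunit of a variant Polycomb complex, was above 250 RPM in 5 of 6 EB cells (292, 271 and 369 and 404, 0.0553 and 509.7 RPM) and above 10 RPM in 1 EHF cell. Pmp22, a membrane protein known from myelin, was at 98.7, 206 and 0 and 943, 271 and 5.97 RPM at EB and at 0.0846, 1.39 and 13.8 RPM at EHF (lowest, median and highest). Fkbp5, a co-chaperone of steroid receptors, was above 100 RPM in 4 EB cells and reached 4.89 RPM at EHF. Ubl3, a ubiquitin-like protein, was above 100 RPM in 4 EB cells and Mettl10, a methyltransferase, at 98.4 RPM or more in 4, while their highest EHF values were 17.7 and 0.561 RPM. Rdh14, a retinol dehydrogenase, Crnkl1, a splicing factor, Lrr1, Cdpf1, Rab5a, a GTPase of early endosomes, Pdss1, an enzyme of ubiquinone synthesis, and Fam193a complete the 15 leading lower genes. Each of these 7 was above 100 RPM in 1 EB cell of each group, and their smallest pair differences ran from -3.04 to -2.71. All 15 kept their direction without the 2 cells.

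Among the 15 leading genes called higher, Col18a1, Lama1, Gata5, Ncam1 and Meg3 were described above. Lrrc4b, a synaptic adhesion protein, was at 0.0553 RPM or less in the EB cells and at 2.00, 242 and 1.84 and 1.35, 15.5 and 636 RPM at EHF, without overlap, but its level rested on the 2 cells with the fewest genes, and its smallest pair difference of 3.20 stood against a stage difference of 0.60 without them. Slc9a8, a sodium and proton exchanger, Scrib, a polarity protein, Safb2, a scaffold attachment factor, Fam193b and Caskin2 had their highest EHF values in the same 2 cells. Without these, the differences of Fam193b and Caskin2 turned to -0.13 and -0.02, and those of Slc9a8, Scrib and Safb2 were 1.19, 1.28 and 1.29. The smallest pair differences of Slc9a8, Scrib and Safb2 were then 0.51, 0.48 and 0.87, so that none of these genes was called without the 2 cells. Runx1t1, a transcriptional corepressor, Cops7b, a subunit of the COP9 signalosome, Tex264, a receptor for autophagy of the endoplasmic reticulum, and Zfp407, a zinc finger gene, differed by 3.39, 2.96, 2.52 and 2.62 with all cells and by 3.89, 3.49, 3.03 and 3.13 without the 2 cells. Runx1t1 was at 4.81 RPM or less at EB and at 147, 22.3 and 401 and 175, 1.56 and 3.81 RPM at EHF. Zfp407 was listed at 0 in the 6 EB cells and was found in 2 EHF cells, at 168 and 142 RPM. Phrf1, a PHD and RING finger protein, did not overlap between stages either. Phrf1 was at 4.54 RPM or less at EB and 12.3 RPM or more at EHF, and Tcerg1l was listed at 0 in the 6 EB cells and at 10.9, 4.26 and 15.5 and 79.8, 102 and 0.0574 RPM at EHF, where the lowest cell is under the level that 3 reads give and cannot be told apart from 0.

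Presence or absence gave a further view over all 14063 symbols. At 1 RPM or more in at least 5 of the 6 cells of a stage and in at most 1 of the other were 17 genes for EHF (0.121%) and 81 for EB (0.576%). The EHF genes held Isl1, Lrrc4b and Tcerg1l, and, named after their values were seen, Actn1, an alpha-actinin, at 19.8, 7.45 and 2.08 and 0.660, 1.34 and 94.5 RPM, Loxl2, a lysyl oxidase of the matrix, at 0.567, 3.22 and 13.5 and 3.06, 15.3 and 1.49 RPM, and Znrf3, a ubiquitin ligase that removes WNT receptors, at 1.49, 19.9 and 3.61 and 2.61, 2.84 and 0.402 RPM. The EB genes held Cdh2, Ezr, Etfa, Tcf7 and Znhit3, and, likewise named afterwards, Chek1, Msh6 and Dbf4, which act in the replication checkpoint, mismatch repair and origin firing. With the 2 cells left out and presence in all 4 or in none of the other EHF cells asked for, 21 genes for EHF and 22 for EB met the rule, against the 17 and 81 with all cells. Leaving out a single cell gave 2 to 7 and 17 to 50, the lowest without EHF Nkx2-5+ replicate 2 and without EHF Nkx2-5+/Tbx5+ replicate 3.

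Markers of other cell types were spread widely over the cells of both stages. For endothelial and blood genes the summed level was 0.166 to 777 RPM over the EB and 0.0860 to 499 RPM over the EHF cells, Tek, Flt1 and Itga2b were at 0 in all 12 cells, and none of 3 compared genes had a common sign over the pairs. Kdr, a receptor of endothelial and cardiac precursors, was above 100 RPM in 2 EB cells and 1 EHF cell, and Etv2, the regulator of endothelial fate, measured 59.0, 229 and 70.7 RPM in the EB Nkx2-5+ cells and was at 0, 4.39 and 41.7 RPM at EHF. The endoderm list summed to 2.81 to 1689 RPM at EB and 90.5 to 1281 RPM at EHF, nearly all from Krt8 and Krt18, keratins that mesoderm can also express, and Cer1, Trf and Cdh1 were at 0 in all 12 cells. The ectoderm list, which shares Krt8, Krt18 and Epcam with it, had Pou3f1 and Epcam below in all pairs. Pou3f1, a POU factor of epiblast and neural cells, was above 10 RPM in 1 EB cell of each group, at 82.5 and 48.9 RPM, and Dlx5 and Cdh1 were at 0 in all 12 cells.

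Immediate early and stress genes stood high in 1 cell. Their summed level was 28.3 to 1446 RPM over the EB and 376 to 13983 RPM over the EHF cells, and the highest was EHF Nkx2-5+ replicate 2. Hspa1a, an inducible heat shock protein, was at 1182 RPM in that cell and at 4.95 RPM or less in the other 11. The median over the list was 1.79 with all cells and -0.20 without the 2 cells. With all cells 2 of 12 members lay above and 1, Hsph1, below in all pairs (16.7% and 8.33%, against 12.3% and 23.0%), and none was called. With the 2 cells left out, none lay above and Hsph1 was called lower, with a smallest pair difference of -1.02. The part of these genes in the results with all 12 cells was not tested.

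**Figure D5:**
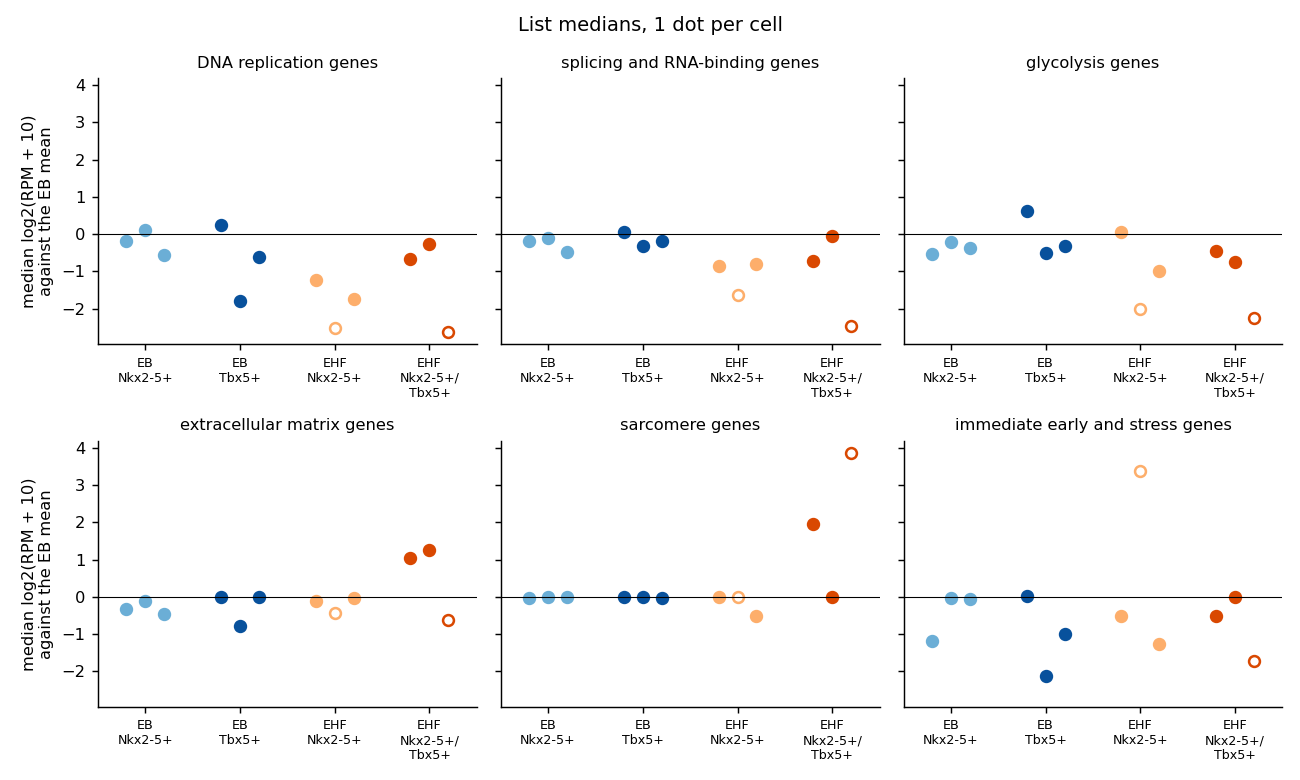
Median over the compared members of 6 gene lists of log2(RPM + 10) minus log2(EB mean + 10), with 1 dot per cell and open dots for the 2 EHF cells with the fewest genes. For DNA replication genes these 2 cells are the lowest, the extracellular matrix list is highest in 2 EHF Nkx2-5+/Tbx5+ cells, and the stress list stands out in EHF Nkx2-5+ replicate 2, at 3.37.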

How the data were processed

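RNA of 12 single CPs was measured, with groups taken from the stage and marker labels of each cell. The authors amplified the cDNA, made Nextera libraries, sequenced them on an Illumina GA IIx and normalised reads in Partek, with mm10 as build. Their notes also list CASAVA 1.7.0 without its step, and the aligner they ran is not given in the sources that were used here. The deposited values are a signal in RPM, not scaled to gene length. The sheet holds 64 copies of its values, of which the first was used. Of 14085 names, 22 changed to dates were left out.

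Calls and scales are defined with the results. Genes were named by rule: the 15 ranked first in each direction, up to 10 per direction without overlap by gap, up to 3 members per list, and the PCR markers; some of these are not reported here. Genes outside it, such as Smarcd3, Gata4, Gata6, Tcf7, Smurf1, Col4a1 and Pcna, were chosen after their values were seen. The cells compared, the rules and the 37 lists were chosen with earlier results of these data known. Of 1255 list symbols, 724 were compared. Alternatives added 1 or 100 RPM, used mean log2 or median values, other minimums, 4-fold, rescaling without the 100 most abundant genes, or fewer cells. The contrast was run on simulated cells with known differences, whose noise was not taken from these cells, as a check of the code alone. Positions are those of RefSeq, GRCm38.p6. Scripts ran in Python 3.11.15 with pandas 2.3.3, numpy 2.4.6, matplotlib 3.10.9 and scipy 1.17.1.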

Additional observations from a re-analysis of the deposited data

Results flagged for a closer look

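Within each stage of 6 cells, the number of genes, the aligned reads, the share of the 100 most abundant genes and the list medians were searched for a highest or lowest cell whose gap to the next, divided by the whole range, was above Dixon's critical value for 6 values. The critical value marks about 1 in 20 groups of independent, normally distributed values. Here 7 of 80 groups were marked, but the 80 share their cells and some of their genes, so that rate is no yardstick for the 7. EB Tbx5+ replicate 2 had 3249 genes at 1 RPM or more, with 4856 in the next EB cell. EHF Nkx2-5+ replicate 3 had 12475588 aligned reads, with 33505486 in the next EHF cell, and so the coarsest read unit of the 12 cells. The median over the paraxial mesoderm genes was 2.21 in EB Nkx2-5+ replicate 3, with -1.29 in the next EB cell, and -0.40 in EHF Nkx2-5+ replicate 2, with -1.38 in the next EHF cell. For endothelial and blood genes it was 1.77 in EB Nkx2-5+ replicate 2, with -1.39 in the next, and for glycolysis genes 0.63 in EB Tbx5+ replicate 1, with -0.21 in the next. For the immediate early and stress genes it was 3.37 in EHF Nkx2-5+ replicate 2, with 0.01 in the next EHF cell. These medians are of log2(RPM + 10) minus that of the EB mean, and those of the paraxial and endothelial lists rest on 3 compared genes each. No explanation was weighed.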

How the results depend on the processing

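The 166 genes higher at EHF became 254 with 1 RPM added, 12 with 100 RPM added, 67 with mean log2 values, 96 with the median over cells, 63 with a minimum of 50 RPM, 28 at 4-fold and 1005 from the means over 6 and 6 cells alone. The 337 lower genes became 28 with 100 RPM added, 144 with a minimum of 50 RPM, 60 at 4-fold and 1343 from the means over 6 and 6 cells alone; the last counts drop the demand that both marker groups differ. Genes without overlap numbered 3 higher and 8 lower with a minimum of 50 RPM, 32 lower with no minimum, and 30 higher without the 2 cells with the fewest genes. With fewer cells or a lower minimum their number can only stay or rise. With those cells left out and no EHF cell allowed at 1 RPM, 22 genes were detected at EB, against 81 under the rule for 12 cells. Leaving out 1 cell in turn gave 138 to 213 genes higher, 240 to 502 lower, 5 to 13 higher and 19 to 44 lower without overlap, 2 to 7 detected at EHF and 17 to 50 at EB, where the detection rule then asks for each cell left. Without the 2 cells the stage differences of Fam193b and Caskin2 turned to -0.127 and -0.0231, and with the median over cells those of Atg13 and Cdca3 turned to -0.0562 and -0.260. The cause of these changes was not tested. Of the 37 list medians, 23 took the opposite sign in at least 1 alternative run and 14 in none. Among the 14 were those of DNA replication, extracellular matrix, imprinted, glycolysis and splicing genes. The 14 also hold the medians of sarcomere and pluripotency-linked genes, which came to 0 in at least 1 alternative. The median over all genes was -0.16 after rescaling without the 100 most abundant genes. No paired analysis was possible because no test was made and the labels tie no cell to an embryo, so equal replicate numbers are names. With 3 cells per group and values that are often all or none, differences carried by 1 cell cannot be told apart from differences of the group.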
